A study of Mus musculus with 6 samples.

Results

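Broad domains are the widest stretches of chromatin that carry 2 acylations of lysine 9 of histone H3, crotonylation (H3K9cr) and acetylation (H3K9ac), in P19 cells. Overlapping peaks of 4 deposited peak lists were merged into 31127 regions, and 22972 of these had peaks from all 4 libraries (shared regions). A region was kept as a domain where its longest peak was 4000 bp or more in each of the 4 lists, which left 494 domains, 2.15% of the shared regions and 1.59% of all merged regions. The domains were chosen by the measured length of these peaks, so their lengths, and with them heights and ranks of the same peaks, are given as a description. Comparisons of width and of edge positions between the marks are limited by this choice.

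P19 is a mouse embryonal carcinoma line, a malignant relative of the early embryo's pluripotent cells, and here it was grown undifferentiated in serum-containing medium with no treatment. Native chromatin immunoprecipitation, in which chromatin is not crosslinked, was sequenced for 2 biological replicates of each mark, and the 2 inputs were not analysed here. All libraries come from the same line, so the comparison is between marks within 1 cell type. Only 1 antibody was used for each mark, so effects of antibody and of mark cannot be told apart. Where 4 values are listed, their order is H3K9cr replicate 1, H3K9cr replicate 2, H3K9ac replicate 1 and H3K9ac replicate 2.

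Acetylation of lysine 9 neutralises the charge of the histone tail, is written by acetyltransferases from acetyl-CoA and marks active promoters. Crotonylation replaces the acetyl group by a longer, unsaturated acyl group from crotonyl-CoA, can be written by some of the same enzymes, and is bound preferentially by YEATS domain proteins. Wide domains of active promoter marks are known from many cell types, where they often cover genes for transcription factors and other regulators of cell identity, while the most abundant housekeeping transcripts often start from tall but narrow peaks.

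Promoter sequences are shown for domains that span the range found here, credited to RefSeq with the build GRCm38.p6. Each runs 5′ to 3′ on the gene's strand from 250 bases before to 50 bases after the annotated start, with every CG dinucleotide in capitals. Trim71 (chr9:114564320-114564619, minus strand), an RNA-binding ubiquitin ligase of pluripotent cells, has the longest domain of these 6 genes. Sox2 (chr3:34649745-34650044, plus strand) encodes a core pluripotency factor. Cdk12 (chr11:98203055-98203354, plus strand), a kinase of RNA polymerase II, has the tallest peak among the domains. Gsc (chr12:104473187-104473486, minus strand), the organizer homeobox gene, has 1 of the 5 lowest. Otx2 (chr14:48667595-48667894, minus strand, 1 of 4 listed starts inside its domain) and Tdgf1 (chr9:110946109-110946408, minus strand), which encode an epiblast homeobox factor and a Nodal co-receptor, hold few CG dinucleotides.
Trim71: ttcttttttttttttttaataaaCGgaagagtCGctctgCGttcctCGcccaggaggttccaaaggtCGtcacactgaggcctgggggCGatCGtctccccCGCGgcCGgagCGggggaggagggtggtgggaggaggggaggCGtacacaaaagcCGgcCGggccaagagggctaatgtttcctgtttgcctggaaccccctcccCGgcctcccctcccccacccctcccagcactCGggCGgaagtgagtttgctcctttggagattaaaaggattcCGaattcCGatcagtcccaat
Sox2: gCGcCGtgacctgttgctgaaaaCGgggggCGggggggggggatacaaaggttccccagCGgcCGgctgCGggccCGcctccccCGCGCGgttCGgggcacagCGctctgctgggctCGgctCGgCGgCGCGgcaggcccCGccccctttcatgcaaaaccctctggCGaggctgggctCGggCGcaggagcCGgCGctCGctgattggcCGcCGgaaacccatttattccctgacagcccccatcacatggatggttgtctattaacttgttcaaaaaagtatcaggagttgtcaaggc
Cdk12: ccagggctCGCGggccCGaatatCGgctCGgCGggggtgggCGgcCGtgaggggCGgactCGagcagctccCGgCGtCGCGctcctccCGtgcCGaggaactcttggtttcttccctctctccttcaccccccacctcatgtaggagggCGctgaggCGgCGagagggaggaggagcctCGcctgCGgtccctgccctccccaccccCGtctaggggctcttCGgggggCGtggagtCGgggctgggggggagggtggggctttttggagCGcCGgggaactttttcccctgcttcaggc
Gsc: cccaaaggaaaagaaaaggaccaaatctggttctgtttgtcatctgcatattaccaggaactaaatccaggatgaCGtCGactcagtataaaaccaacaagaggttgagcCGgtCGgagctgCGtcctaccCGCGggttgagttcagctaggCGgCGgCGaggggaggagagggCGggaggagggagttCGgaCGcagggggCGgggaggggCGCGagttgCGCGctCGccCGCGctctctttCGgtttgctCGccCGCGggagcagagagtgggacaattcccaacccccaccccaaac
Otx2: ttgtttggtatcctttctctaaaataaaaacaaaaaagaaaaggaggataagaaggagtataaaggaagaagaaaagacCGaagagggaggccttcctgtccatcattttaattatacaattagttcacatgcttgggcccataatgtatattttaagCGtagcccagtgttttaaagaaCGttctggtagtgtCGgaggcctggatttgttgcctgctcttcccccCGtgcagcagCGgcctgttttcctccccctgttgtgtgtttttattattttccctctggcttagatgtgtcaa
Tdgf1: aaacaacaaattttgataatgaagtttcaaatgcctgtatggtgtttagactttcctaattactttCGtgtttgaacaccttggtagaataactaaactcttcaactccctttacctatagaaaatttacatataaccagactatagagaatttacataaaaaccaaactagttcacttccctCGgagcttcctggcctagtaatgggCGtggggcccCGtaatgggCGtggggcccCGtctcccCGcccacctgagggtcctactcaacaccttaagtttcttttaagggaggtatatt

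The 6 stretches held 19, 27, 27, 25, 6 and 7 CG dinucleotides in the order printed. Across the 504 listed promoters of 385 genes inside domains the median was 23 (quartiles 14.8 and 33), beside 22 for 10856 promoters in other shared regions and 3 for 9902 promoters outside any shared region. The median GC content was 64.0% in domains, 62.7% in other shared regions and 48.7% outside. The listed promoters, which cover 385 of the 552 genes in domains, thus had medians close to those of the narrower shared regions. The letters GGGCGG, searched on both strands, were found in 68.3% of domain promoters, 69.4% of promoters in other shared regions and 46.2% of all 21262 listed promoters. The letters TATAAA, also on both strands, were found in 6.94% of domain promoters against 5.42% in other shared regions and 12.6% of all. CCAAT was found in 34.5%, 36.0% and 38.2% of these groups. Of the 6 printed stretches, Otx2 and Gsc hold TATAAA. Of the 385 genes, 82 had 2 or more listed starts inside domains, up to 6 for 1 gene.

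Domains also covered microRNA genes. Of the 1005 hairpins with a listed sequence, 13 lay in 11 domains, which is 1.29%, and microRNA gene records of any kind overlapped the core of 13 domains. The 4 shown here belong to microRNAs with known roles, with the seed (bases 2 to 8) in capitals: let-7e, which represses pluripotency and growth genes, miR-92b of neural progenitors, and the neural miR-219a and miR-129.
mmu-let-7e-5p: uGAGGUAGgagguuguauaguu
mmu-miR-92b-3p: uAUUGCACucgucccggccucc
mmu-miR-219a-5p: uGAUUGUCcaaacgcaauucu
mmu-miR-129-5p: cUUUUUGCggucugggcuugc

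The 4 seeds differ from one another. Mirlet7e (chr17:17830352-17830444) lay at the edge of a domain inside the Spaca6 record, whose longest peaks measured 5380, 5338, 5116 and 5394 bp. Mir92b lay in a domain over Thbs3 and Muc1, and Mir219a-1 in a domain over Ring1, a Polycomb ubiquitin ligase, and H2-Ke6. Mir129-2 lay in a domain on chromosome 2 with no protein-coding gene, at chr2:94241364-94241453.

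The labelled cell type was checked against marker genes. All 8 pluripotency markers looked for (Pou5f1, Sox2, Nanog, Utf1, Lin28a, Sall4, Dppa4 and Tdgf1) had a peak in every list, and of the markers of other cell types, Alb, Hbb-bt, Ptprc and Krt5 had none in any list, while Myod1 had peaks of 320 to 701 bp and Col1a1 peaks of 1890 to 2477 bp. The lists held 28360, 28345, 26096 and 27474 peaks. Sequencing depth is not given in the sources used here. H3K9ac replicate 1 had the fewest peaks, the shortest domain peaks and the most split domains of the 4, and the part of depth in any result was not tested.

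The longest domain covered Kdm6b, which encodes a demethylase of the Polycomb mark on lysine 27 of histone H3, and reached into Dnah2 (chr11:69408213-69421954 is the stretch common to the 4 libraries, called the core here). The longest peak there measured 13918, 13949, 13754 and 13819 bp. Both H3K9cr libraries were above both H3K9ac libraries, by less than 200 bp. On deposited lengths 39.5% of domains and 34.4% of all shared regions had this order. A second, separate domain of 6149 bp or more (core chr11:69394293-69400429) overlapped the other end of the Kdm6b record, which starts at 69398508. It also covered Naa38 and Tmem88 wholly and part of Cyb5d1. Tnrc18 on chromosome 5 followed with 11939, 11839, 11809 and 11671 bp.

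Several of the other long domains are described with their lengths in each library. Trim71 had peaks of 10376, 10189, 9939 and 10130 bp, Bcl11a, a zinc finger repressor, 9685, 10104, 9479 and 9923 bp, and Otx2 9547, 9653, 9227 and 9744 bp. In the latter 2 genes the marks overlapped. Hes1, a repressor in Notch signalling, had 9114, 9157, 9017 and 8947 bp, with H3K9cr slightly longer. Setd1b (shared with Rhof), a methyltransferase for lysine 4 of histone H3, had 10310, 13670, 9537 and 10855 bp, so that 1 H3K9cr library stood apart from the other 3. Arid1a, a subunit of the BAF remodelling complex, had 7889, 8037, 8025 and 7983 bp, and all 4 libraries lay within 200 bp of each other.

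Sall1, Bahcc1, Zfp608, Setd5 and Igf2bp3 were also among the 15. Sall1 encodes a zinc finger factor of the early embryo and Igf2bp3 an RNA-binding protein. Sall1 measured 11174, 11515, 8505 and 10870 bp, with H3K9ac replicate 1 far below the other libraries. Igf2bp3 measured 8567, 7956, 8453 and 7953 bp, without separation of the marks.

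Most domains were close to the threshold. The shortest of the 4 longest peaks was 4000 to 5000 bp in 296 domains, 5000 to 6000 bp in 122, 6000 to 8000 bp in 64 and 8000 bp or more in 12, with a median of 4707 bp. Just inside were Basp1 (4002 bp), Plekho1 (4005 bp), Hnrnpd (4007 bp), Foxp4 (4007 bp) and Apbb2 (4009 bp). Just outside were the regions of Fam104a (3996 bp), Dnajb4 and Fubp1 (3994 bp), a region of chromosome 18 without a protein-coding gene (3991 bp), Bbx (3984 bp) and Ddx5 (3981 bp). In all, 933 regions had a peak of 4000 bp or more in at least 1 list, and 138 of them missed it in a single list. For 103 of the 138 that list was H3K9ac replicate 1, beside 17 for H3K9ac replicate 2, 12 for H3K9cr replicate 1 and 6 for H3K9cr replicate 2.

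**Figure D1:**
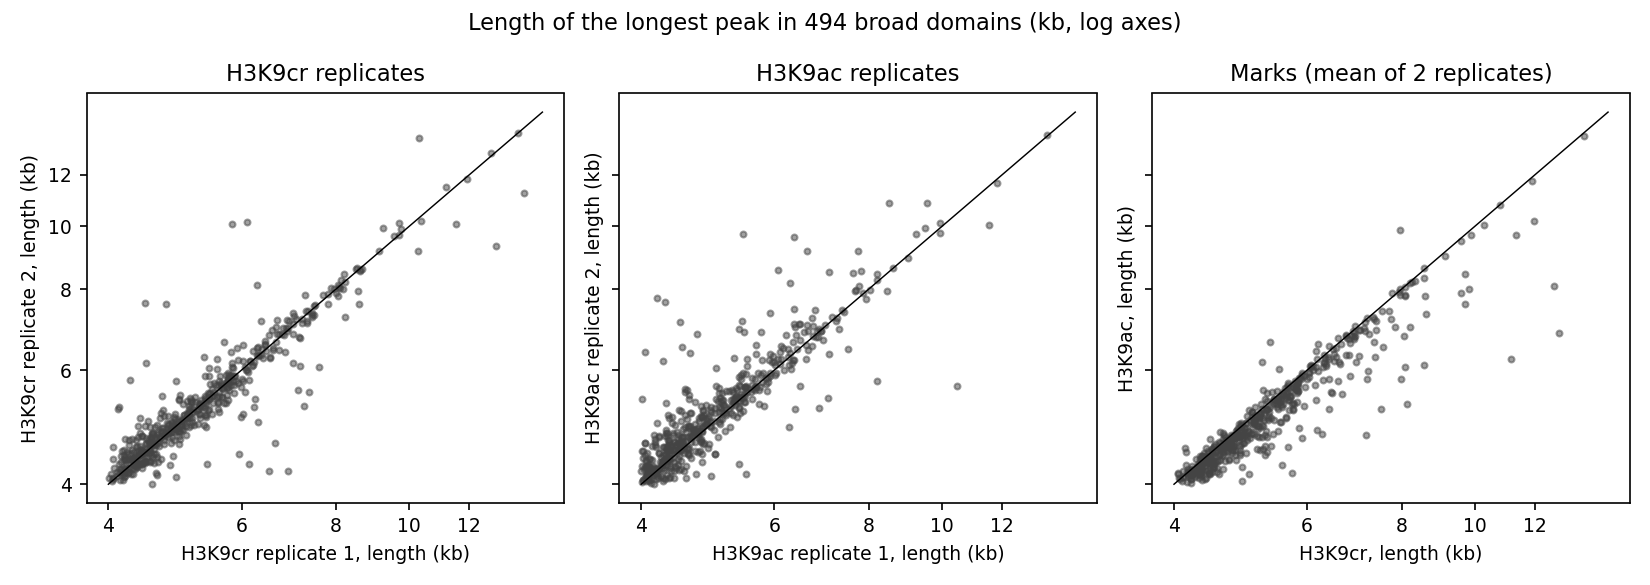
Length of the longest peak (kb, log axes) in each of the 494 domains, with the line of equal length: H3K9cr replicate 1 against 2, H3K9ac replicate 1 against 2, and the mean of the 2 H3K9cr libraries against the mean of the 2 H3K9ac libraries. Most points lie near the line in all 3 panels, and the points far below it in the right panel include the Myo10 domain (means 11175 and 6250 bp).

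The genes under the domains were mostly protein-coding. A protein-coding gene record overlapped the core of 462 domains (93.5%), and a gene end lay inside the core of 403 (81.6%, Wilson 95% interval 77.9 to 84.7%, for counting error only). Among the 22478 other shared regions these shares were 75.1% and 41.1%, and among other shared regions of 1500 to 2500 bp they were 90.8% and 68.9%. A wider region has more room for a gene end, and the part of width in these shares was not tested. In 92 domains 2 or more protein-coding records overlapped the core, and in 34 domains (6.88%, against 0.418% of other shared regions) the core held a whole gene.

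In all, 552 of 21883 protein-coding genes (2.52%) had a record in a domain core, and 41 of them lay wholly inside. These included Sox2, Hes1, Foxd3, Sox3, Sox4, Pou3f1, Junb, Ier2 and several histone genes, which are all short. The median record length of domain genes was 20465.5 bp, against 25039 bp for genes of other shared regions. Records under 5000 bp made up 17.6% of domain genes and 11.3% of the others. Domain genes were thus the shorter group by the median. Bcor, a Polycomb-associated co-repressor, was covered by 3 domains, and Kdm6b, Igf2bp1, Bcl11b, Zmynd8, Gse1 and Jmjd1c were among the genes covered by 2.

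The gene lists were chosen with earlier results of these data known, so their shares are a description and not a test. Of 37 pluripotency genes, 16 (43.2%) had a record in a domain, beside 2.52% of all protein-coding genes. Among genes with an end in a shared region the shares were 57.1% of 28 pluripotency genes and 4.75% of all 10745 such genes. Trim71, Otx2 and Sall1 had the longest of these domains. Sox2 had longest peaks of 10278, 9156, 7738 and 9170 bp (core chr3:34647311-34655048), with H3K9cr replicate 1 longest and H3K9ac replicate 1 shortest, and with the H3K9cr and H3K9ac libraries numbered 2 nearly equal. Pou5f1, which encodes OCT4, had 6314, 4992, 4332 and 4792 bp, so both H3K9cr libraries were longer than both H3K9ac libraries. On deposited lengths this was so in 39.5% of domains and 34.4% of all shared regions. Sall4 had 6607, 6487, 6366 and 6212 bp and Tdgf1 4328, 4490, 4287 and 4367 bp. Klf4, Mycn, Foxd3, Pou3f1, Jarid2, Zic2, Lin28b and Lefty1 were also in domains. Nanog (1697 to 2001 bp) and Dppa4 (568 to 1154 bp), both pluripotency factors, had narrow peaks in every list, and Utf1 measured 3887, 4282, 3861 and 3700 bp, short of the threshold in 3 libraries.

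Of 30 neural progenitor genes, 12 (40.0%) were in a domain: Otx2, Hes1, Sox2, Zic2, Id2, Sox4, Zic1, Sox11, Nes, Sox3, Pax6 and Dll1. Sox4 measured 7087, 7189, 6734 and 7215 bp, and Id2, an inhibitor of basic helix-loop-helix factors, 7444, 7238, 7260 and 7217 bp. The marks overlapped for both genes. Pax6, a homeobox gene of the eye and brain, measured 5441, 5865, 5602 and 5842 bp, again without separation. Otx2, Sox2 and Zic2 are also among the 16 pluripotency genes, so the lists are not independent.

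Immediate early and growth response genes, which react quickly to signals, gave 20 of 49 (40.8%). Zfp36l1, a regulator of mRNA decay, had the longest domain among them (7362 bp or more), followed by the MAP kinase phosphatase Dusp4 with 7011, 6819, 6826 and 6887 bp, Egr3 with 6820, 6792, 6132 and 6543 bp, and Ccn1 (5804 bp or more). Fos, Fosb, Junb, Myc, Atf3, Egr2, Ier2 and Dusp6 were also in domains. Of 68 signalling genes, 21 (30.9%) were in a domain. These included the retinoic acid receptors Rara (8057, 8106, 7675 and 7938 bp) and Rarg (7809, 7597, 7429 and 7376 bp), the Hedgehog receptor Ptch1, the ephrin Efnb2, the TGF-beta inhibitor Smad7, Bmp4 and the Wnt receptors Fzd2, Fzd7, Fzd8 and Fzd10. In both retinoic acid receptor genes both H3K9cr libraries were longer than both H3K9ac libraries. As deposited, that order held in 39.5% of domains and 34.4% of all shared regions, so it is not particular to these genes. After centring on the library median it held in 3.85% and 11.7%.

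Chromatin regulators gave 20 of 67 (29.9%), led by Kdm6b, Setd1b, Arid1a and Kdm2b (7474, 7309, 7315 and 6952 bp), which encodes a CpG-binding subunit of a Polycomb complex. Other Polycomb-related genes in domains were Pcgf2 (6868, 6966, 6741 and 6777 bp), Jarid2, Cbx8, Bcor, Phc1 and Asxl1. Ezh2, Eed and Suz12, the core of the lysine 27 methyltransferase, were listed too and were not in a domain. Of 41 cell cycle and growth genes, 8 (19.5%) were in a domain, among them all 3 D-type cyclins, with Ccnd2 at 8056, 7796, 7759 and 8084 bp, all 3 Myc family genes, and Cdk6.

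The list of Polycomb-target regulators, developmental genes that are often silenced by Polycomb before differentiation, gave 10 of 70 (14.3%), among them Meis2, Sox9, Gata6, Irx3, Pax6, Eomes, Lhx1, Irx5 and Gsc. Meis2 measured 8530, 8630, 7082 and 8510 bp, with H3K9ac replicate 1 shorter than the other 3. None of 39 Hox genes was in a domain, and 9 of them had an end in a shared region. Gata6, an endoderm factor, was also the single gene in a domain of 34 markers of other cell types.

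Lists of genes for general cell functions and of large gene families were counted in the same way. RNA processing factors gave 10 of 51 (19.6%) and translation and metabolic housekeeping genes 6 of 54 (11.1%), namely Hmga1, Actg1, Ptma, Pfn1, Pkm and Gapdh. Of 91 cytosolic ribosomal protein genes 1 (Rpl13a) was in a domain, although 72 had an end in a shared region. Replication-dependent histone genes gave 11 of 62 (17.7%), all in 5 domains and so not 11 separate measurements. Of 28 genes for ubiquitin ligases and cytokine signalling inhibitors, 1 (Socs2) was in a domain, and of 397 genes of the Zfp series 15 (3.78%). None of 1110 olfactory or 355 vomeronasal receptor genes was in a domain.

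**Figure D2:**
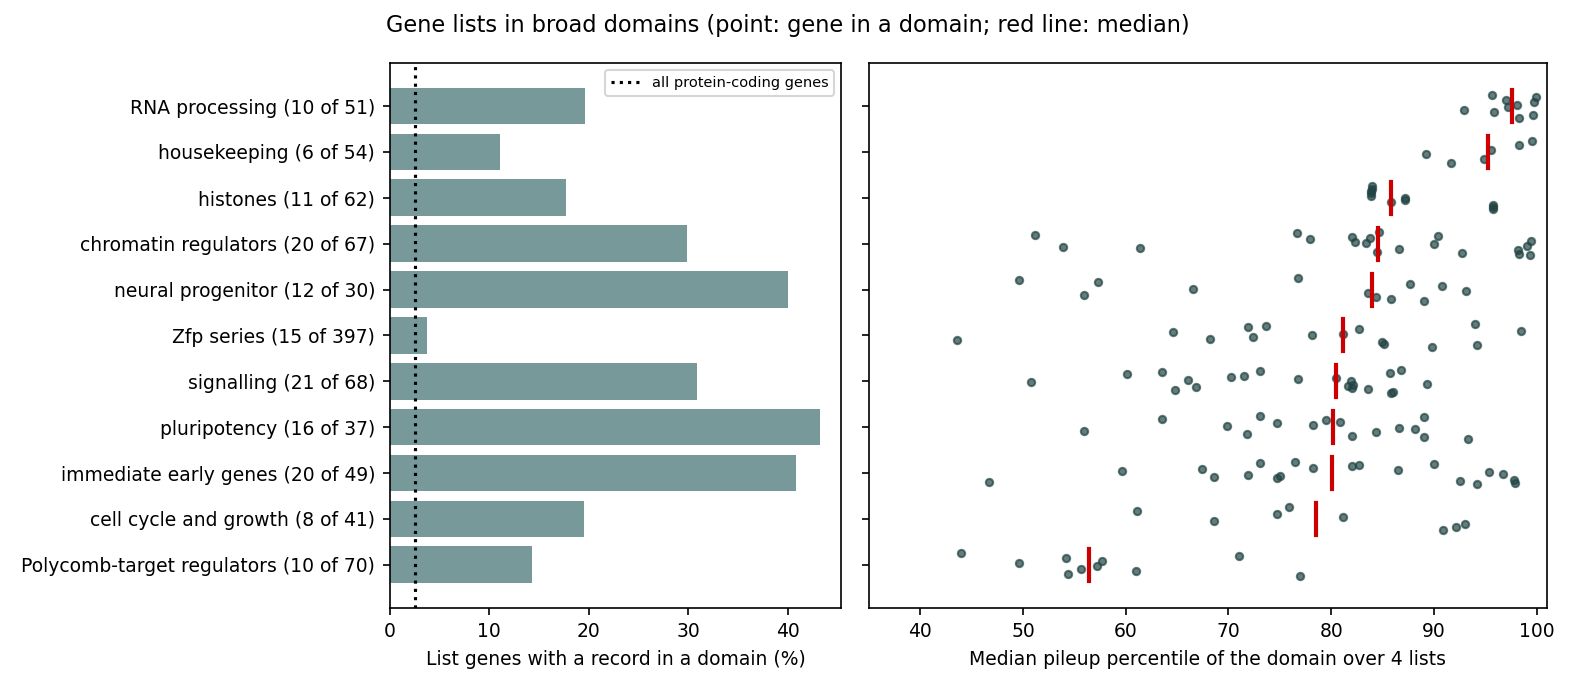
Left, percent of each list's genes with a record in a domain (bars, with the counts beside the names, and a dotted line for all protein-coding genes at 2.52%); right, median pileup percentile over the 4 lists for each gene in a domain (points) with the list's median (red). Pluripotency, immediate early and neural progenitor genes have the longest bars, and RNA processing and Polycomb-target genes lie at the high and low ends of the right panel. The lists were chosen with earlier results of these data known.

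Domains were wide but not all tall. Pileup is the coverage at a summit as the authors' peak caller gives it, and it was ranked as a percentile among all peaks of the same list. The median domain stood at percentile 84.5, 84.5, 83.0 and 83.0. Of the 494 domains, 474 were above percentile 50 in all 4 lists, 78 above percentile 95 in all 4, and 8 below percentile 50 in all 4. The percentiles of a domain in the 4 lists ranged over 3.61 points in the median and 13.2 at most.

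Height rose with length up to about 3 kb and then levelled off. Among other shared regions the median percentile was 60.7 to 62.8 over the 4 lists at 1 to 2 kb, 79.2 to 79.6 at 2 to 3 kb and 82.3 to 83.6 at 3 to 4 kb, close to the domains. Within domains the Spearman correlation between length and pileup was 0.10, 0.09, 0.05 and 0.04 over 494 domains, against 0.72 to 0.75 over 22478 other shared regions. Both values of a pair come from the same peak and library, and the domains span a narrower range of lengths.

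**Figure D3:**
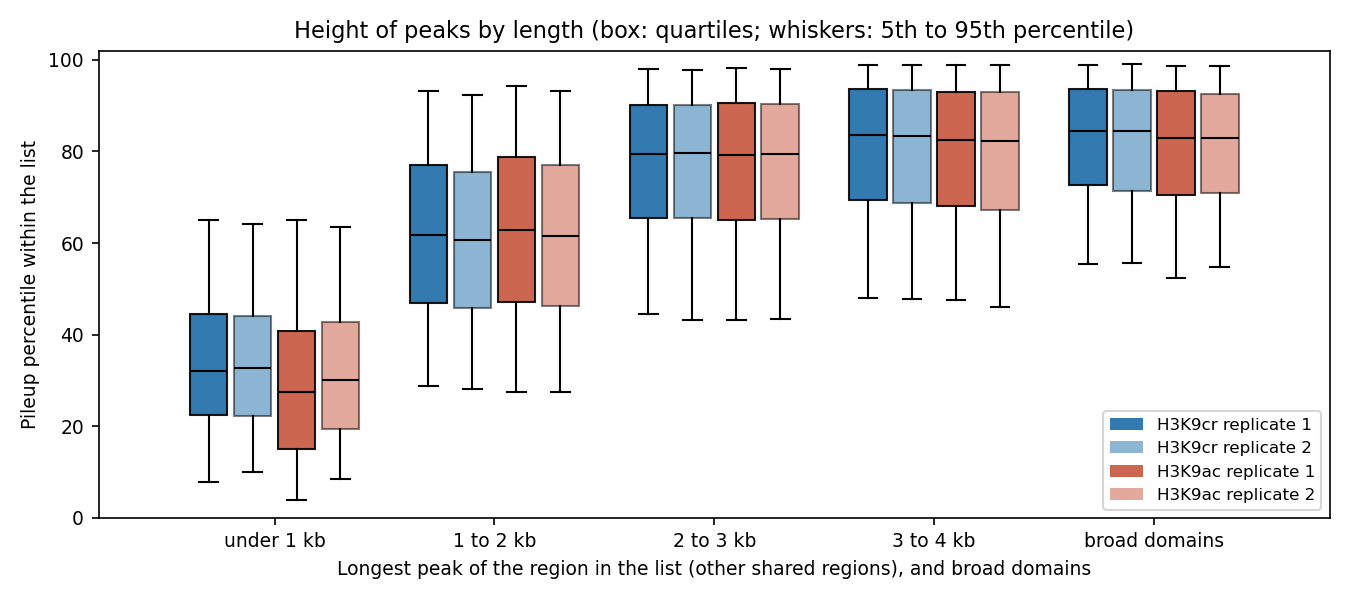
Pileup percentile within each list for other shared regions by the length of the longest peak, and for the 494 domains (box: quartiles; line: median; whiskers: 5th to 95th percentile; 1 box per library). The medians climb from 27.5 to 32.6 in the class under 1 kb to about 80 at 2 to 3 kb and differ little from there to the domains.

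The 5 tallest domains were at Cdk12, Etf1, Ewsr1, Setd5 and Rpl13a. Cdk12 stood at percentile 99.993, 99.995, 99.989 and 99.996, with peaks of 4850, 4975, 4997 and 4848 bp. Etf1, which encodes the translation release factor eRF1, Ewsr1, an RNA-binding protein gene, Setd5 and the ribosomal protein gene Rpl13a followed, with median percentiles of 99.982, 99.939, 99.928 and 99.9. Of these 5 domains, Setd5 (8601, 8550, 8197 and 8452 bp) was the only 1 among the 15 longest. Rpl13a measured 4468, 7606, 4302 and 7628 bp, short in both libraries numbered 1 and long in both numbered 2.

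Gsc, 1 of the 5 lowest domains, stood at percentile 43.7, 46.5, 39.5 and 44.2, although its peaks measured 4175, 4506, 4183 and 4225 bp. Smarca2, an ATPase of the BAF complex (43.7, 48.5, 38.0 and 43.8), Zfp503 (41.8, 45.2, 40.8 and 49.6), the cilium GTPase gene Arl3 (46.9, 42.5, 41.4 and 43.8) and the third Bcor domain (45.7, 43.5, 37.1 and 41.9) were also below percentile 50 in every list. The other 3 such domains were at Lbx1, Egr3 and Cdh11, named after their values were seen. H3K9ac replicate 1 gave the lowest percentile for each of the 5 domains with values.

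Among gene lists with 6 or more genes in domains, the 10 RNA processing genes had the highest median percentile, 97.6 (range 92.9 to 99.9), followed by the 6 housekeeping genes at 95.2. Hnrnpa2b1, Hnrnpf, Hnrnpu, Srsf2 and Srsf3 are among the former. The 10 Polycomb-target regulators had the lowest median of these lists, 56.4, with Pax6 at 48.5, 50.2, 49.1 and 50.2 and Meis2 at 59.4, 54.0, 51.7 and 54.8. Pluripotency genes (80.2), immediate early genes (80.1), signalling genes (80.4), neural progenitor genes (83.9) and chromatin regulators (84.5) lay near the median over all genes in domains, 85.2. Within the pluripotency list the range was wide, from Zic2 at 58.0, 56.4, 55.4 and 55.2 to Trim71 at 93.6, 94.6, 93.2 and 92.0.

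The domains extended further into genes than upstream of them. For 222 domains with a single protein-coding record and its 5′ end in the core, the longest peak reached a median of 3440, 3501.5, 3339 and 3438 bp downstream of the 5′ end and 1569, 1613.5, 1515 and 1553.5 bp upstream. The downstream arm was the longer in 184, 190, 189 and 191 of them, and in 178 in all 4 libraries, while the upstream arm was longer in all 4 in 21. In 5966 other shared regions of this kind the arms measured 1196.5 to 1286 bp and 598.5 to 666 bp, and the downstream arm was longer in 86.9 to 87.7%. The share was thus similar, 82.9 to 86.0% in domains. Summits lay within 1000 bp of the 5′ end in 59.5 to 62.6% of the domains, against 95.9 to 96.1% of the other regions.

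**Figure D4:**
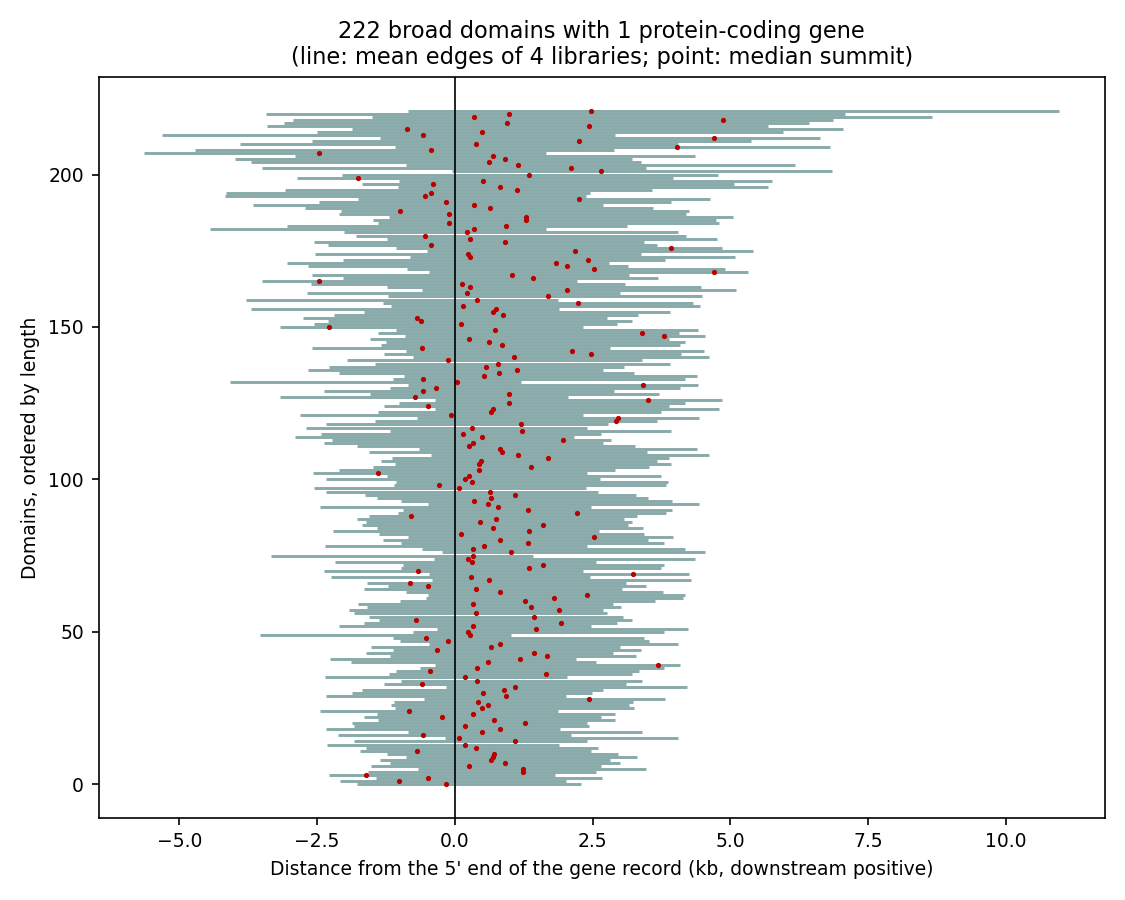
The 222 domains with 1 protein-coding gene, ordered by length: each line runs from the mean upstream to the mean downstream edge of the 4 libraries relative to the gene record's 5′ end (kb), and the red point is the median summit. Most lines reach further to the right (downstream), and summits of many domains lie away from 0.

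In 32 domains no protein-coding record overlapped the core, and 9 of these had no gene record at all. A long noncoding RNA record was present in 21 of the 32. The longest lay over Dleu2, with 7698, 7833, 7865 and 7887 bp, and over Malat1, an abundant nuclear RNA, with 8224, 7247, 7230 and 7144 bp. Neat1, the scaffold RNA of paraspeckles, had 7601, 6075, 5517 and 6248 bp and forms a pair with Malat1 on chromosome 19 (Neat1 was named after its values were seen). The others of the 5 longest were over 2810410L24Rik (6681 bp or more), Gm26698 (6456 bp or more) and C230035I16Rik with 2 tRNA genes (6380 bp or more). The median distance from these 32 domains to the nearest protein-coding gene was 28642.5 bp.

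Along the chromosomes some domains were close together. Another domain lay within 100 kb of 94 domains (19.03%), and 10.0% of other shared regions had a domain within 100 kb. At 10 kb the shares were 5.26% and 1.67%. At 1 Mb the difference was gone, with 44.7% and 45.8%, and the median distance to the nearest domain was 1197 kb for domains and 1184 kb for other shared regions. The number of other shared regions within 100 kb had a median of 4 for both and a mean of 5.72 for domains and 5.24 for the others.

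The 94 domains formed 42 clusters, 34 of 2, 6 of 3 and 2 of 4 domains. Both clusters of 4 were on chromosome 11, which had the most domains (50) and also the most shared regions (1978). Domains were 2.53% of its shared regions, beside 2.15% of all shared regions. The first spanned 68.3 kb with Borcs6, the synaptic vesicle gene Vamp2, the clock gene Per1 and the Notch-pathway repressor Hes7. There Per1 measured 5427, 5505, 5343 and 5474 bp, and Hes7 9752, 9902, 6363 and 9633 bp with H3K9ac replicate 1 shorter by over 3000 bp. The second spanned 177.0 kb with Epop, Mllt6, Pcgf2 and Lasp1, of which Epop and Pcgf2 encode Polycomb-associated proteins. Among clusters of 3 the shortest spanned 33.8 kb with Skida1 (5910, 6500, 6022 and 5939 bp) and Mllt10 (5002, 4914, 4626 and 4922 bp). Another included the Polycomb gene Cbx8 (4213, 4125, 4207 and 4225 bp), and a further 1 was made of the 3 Bcor domains. Others joined Junb with Get3 and Tnpo2, the gene Ptma with 2 domains without protein-coding genes, and 2 histone gene domains on chromosome 13 with a tRNA domain.

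Among chromosomes, the share of shared regions that were domains ranged from 1.24% on chromosome 16 (8 domains) to 3.04% on chromosome 19 (24 domains). None was on chromosome Y, which had 7 shared regions.

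Edges of the domains fell at nearly the same positions for both marks. These edges set the lengths by which the domains were chosen, and regions with a short longest peak in any list were left out. Their agreement is therefore a description of the regions kept. The median distance between the starts of the longest peaks was 69 bp between the 2 H3K9cr libraries, 85.5 bp between the 2 H3K9ac libraries, and 65 to 104 bp over the 4 pairs of different marks. For ends the same-mark distances were 79.5 and 88.5 bp, and those between marks 75.5 to 125 bp. The 2 closest libraries were H3K9cr replicate 2 and H3K9ac replicate 2, which carry different marks. The 2 pairs with the largest distances both included H3K9ac replicate 1. Means over pairs were 77.3 and 83.5 bp for starts and 84 and 98.5 bp for ends, within and between marks. In other shared regions, which are narrower, they were smaller, 55 and 56.75 bp for starts and 56 and 57.5 bp for ends.

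Both edges lay within 200 bp of each other in 322 domains for the H3K9cr pair, in 279 for the H3K9ac pair and in 250 to 333 for pairs of different marks. The mean share of domains was 60.8% within and 59.0% between marks, below the 73.7% and 72.6% of other shared regions. The bases shared by the 2 longest peaks, as a share of the bases covered by either, had a median of 0.961 within marks and 0.957 between marks. This was 0.900 and 0.898 in other shared regions. Summits were 22 to 34 bp apart in the median over the 6 pairs, but over 1000 bp apart in 45 to 62 domains per pair. They lay within 200 bp in 74.1 to 79.6% of domains, beside 85.7 to 88.4% of other shared regions. With all 4 libraries together, both edges stayed within 200 bp in 128 domains, and an edge moved by over 1000 bp in 63.

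Splitting accompanied nearly all of these large shifts. Of the 63 domains, 61 had 2 or more peaks in at least 1 list, and the other 2, at Sox3 and in a region of chromosome 2 without protein-coding gene, moved by 1009 and 1091 bp. In all, 404 domains had 1 peak in every list, with median edge ranges of 165 and 188 bp, and 90 were split in some list. With the outermost peak of the region in place of the longest, an edge moved by over 1000 bp in 12 domains. Split domains numbered 25, 31, 58 and 45 in the 4 lists, so the H3K9ac lists had more, though an exact two-sided permutation test of 2 libraries against 2 gave p = 0.333, the smallest it can give.

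The 5 domains split in every list were at Sox2, Fzd7, Irx3, Zfhx3 and Tgif2. In 6 domains both H3K9cr lists had 1 peak and both H3K9ac lists had 2 or more, among them Zfp516, Lbx1, Asic4, the Tshz1 and Zadh2 domain and the H2bc8 and H2bc7 domain. The reverse occurred in none. These counts were not made for other shared regions, and both H3K9ac lists had more split domains than both H3K9cr lists.

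**Figure D5:**
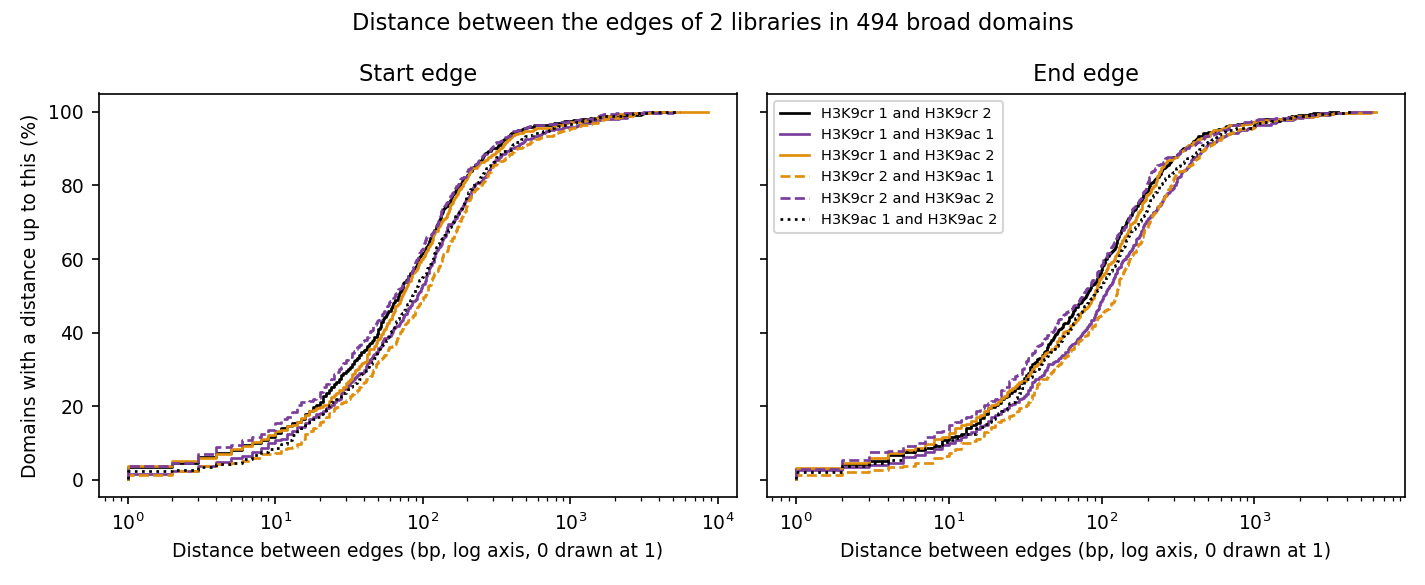
Cumulative percent of the 494 domains by the distance between the edges of 2 libraries (bp, log axis), for starts and ends, with 1 line for each of the 6 pairs of libraries (black: same mark; colours: different marks). The lines for the same mark lie among those for different marks, and H3K9cr replicate 2 with H3K9ac replicate 1 lies furthest right.

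Width was then tested between the marks with limma on log2 length, centred on each library's median and adjusted by the Benjamini-Hochberg method over all 22972 shared regions. No domain was called, as was no region at all (0.0% in each direction), and the smallest adjusted p was 0.194. At an unadjusted p under 0.05 there were 5 domains, among them Asic4, Bcl6 and Eif3a, wider for H3K9cr, and Creb5, wider for H3K9ac. This is 1.01% of domains, beside 4.96% of all regions (3.63% wider for H3K9cr and 1.33% wider for H3K9ac). Fitted on length in bp instead, limma called 3 domains, all wider for H3K9cr, among them Eif3a (adjusted p 0.037) and Bcl6 (0.0466). Over all 22972 shared regions this fit called 35 wider for H3K9cr and 1 wider for H3K9ac, so the direction was not particular to domains. Eif3a, which encodes a translation initiation factor, measured 5757, 5715, 4074 and 4251 bp. The germinal centre repressor gene Bcl6 measured 7027, 7336, 4514 and 5012 bp, and the marks overlapped in neither gene. For Bcl6 these are the longest of several peaks in both H3K9ac lists (1315, 4514 and 308 bp, and 1374, 5012 and 294 bp). Fitted on the log2 summed length of all peaks in a region, limma called 0 domains in either direction.

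The direction over all domains depended on centring and on scale. Domains were on the median 0.08 log2 narrower for H3K9cr with centring, where 78 of 494 were wider for H3K9cr, and 0.04 log2 wider for H3K9cr without it, where 409 were. On centred length in bp they were 18.5 bp wider for H3K9cr, with 264 of 494 wider. Leaving out H3K9ac replicate 1 moved the centred log2 difference to -0.021, and leaving out H3K9ac replicate 2 moved it to -0.134. The library medians over shared regions differed by 0.12 log2, with H3K9cr longer. As deposited, both H3K9cr libraries were longer than both H3K9ac libraries in 195 domains (39.5%), beside 34.4% of all shared regions, and the reverse held in 15 domains (3.04%) beside 4.54%. After centring these were 19 domains (3.85%) beside 11.7% and 212 domains (42.9%) beside 25.6%. Over the 2 libraries of a mark, H3K9cr domains had a median length of 5117.5 ± 9.19 bp and H3K9ac domains 4900.75 ± 138 bp (SD, n = 2 libraries, exact two-sided permutation p = 0.333, the smallest possible). The rule left out regions long for 1 mark only, so the width comparisons cover what remained after the choice by length. Of 933 regions with a peak of 4000 bp or more in some list, 62 had it in both H3K9cr lists only. The reverse held for 4. Both counts use lengths as deposited, without centring, and the lists held 747, 820, 562 and 705 peaks of 4000 bp or more. Domains held 6.65 ± 0.09% of all peak bases for H3K9cr and 7.02 ± 0.33% for H3K9ac (SD, n = 2), also with an exact permutation p of 0.333.

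Positions of single edges gave 1 call. In limma fits on edge coordinates the start of no domain differed between marks after Benjamini-Hochberg adjustment, beside 0.152% of regions starting lower and 0.00871% starting higher for H3K9cr. At an unadjusted p under 0.05 there were 42 domains, 39 starting lower and 3 starting higher for H3K9cr, beside 6.55% of all regions (5.89% lower and 0.657% higher). For ends an unadjusted p under 0.05 was found in 48 domains, 46 ending higher and 2 lower for H3K9cr, beside 6.84% of all regions (6.0% higher and 0.84% lower). The end of 1 domain was called after adjustment, beside 0.192% of regions ending higher and 0.0174% ending lower for H3K9cr. With the outermost edge of the region, with the replicate number as a block or without any 1 of the 4 libraries, limma called none of the starts and ends of domains or of any other shared region (smallest adjusted p over domains for ends 0.297, 0.339 and 0.186 to 0.381).

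Among the domains with the largest differences in mean width in favour of H3K9cr were those at the unconventional myosin gene Myo10 (13041, 9309, 7058 and 5442 bp), 1 of the 2 Zmynd8 domains (14190, 11250, 10475 and 5674 bp) and the G protein gene Gnas (6095, 10153, 5459 and 5183 bp), beside Bcl6. In all 3 both H3K9cr libraries were longer than both H3K9ac libraries, and the peaks were split in some lists. In favour of H3K9ac they were at the exchange factor gene Arhgef2 (5832, 10081, 9939 and 9764 bp), Borcs6 (6526, 4196, 6721 and 6533 bp), the homeobox gene Irx5 (6144, 4303, 6124 and 6241 bp), Creb5 (4109, 4171, 4439 and 4646 bp) and the Zfp628 domain (means 5511 and 6020 bp). For Arhgef2, Borcs6 and Irx5 a single H3K9cr library, with a split peak, was short and the other matched H3K9ac. Creb5, a transcription factor gene, had 1 peak in every list and no overlap between marks.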

How the data were processed

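H3K9cr and H3K9ac peak lists of P19 cells were used, 2 libraries per mark, grouped by the labels. Per the submitters' processing notes, the authors used Bowtie2 2.4.1, MACS2 2.2.7.1 and the build GRCm38. Caller options, read depth and the use of the inputs: not given in the sources used here. Each deposited row gives, per the file headers, position, length, summit, the pileup signal, the -log10 p-value, the fold enrichment (a ratio) and the -log10 q-value, all the authors' own. Such values served only for ranks, filters and descriptions inside 1 list. The biological replicates are stated by the series' design text.

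Peaks overlapping by 1 bp or more were merged (Python 3.11.15, pandas 2.3.3), and positions count from 1. Genes, promoters and microRNAs come from RefSeq tables of GRCm38.p6. 17491 of 21883 protein-coding genes had a strand. Clusters joined domains at most 100 kb apart. Widths and edges were fitted over all shared regions with limma 3.58.1 (R 4.3.3), called at a Benjamini-Hochberg adjusted p under 0.05. The fit was also run on simulated lengths with independent normal noise, without split peaks, and the outcome is not used here. Single values per library were compared by exact two-sided permutation tests. Named genes are those of the 15 longest domains, the 5 tallest and 5 lowest, the 5 most different in width in each direction, the 5 nearest the threshold on each side, the 5 largest clusters, the 5 longest domains without protein-coding genes, and up to 4 of each list. Further list members are named by their presence in a domain. The domains and gene lists were chosen with earlier results of these data known. Alternatives changed the length threshold, the libraries, the overlap, the q-value, the distance and the fit. Some genes covered by the rule for names are not reported here.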

Additional observations from a re-analysis of the deposited data

How the results depend on the processing

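The number of domains, 494, became 1554 at a length threshold of 3000 bp and 198 at 5000 bp, and 500 to 597 when 1 library was left out. Leaving out a library asks for 4000 bp in fewer lists, so it tends to add domains. An overlap of at least 50% of the shorter peak, a -log10 q of 10 or more, or equal numbers of peaks per list gave 494 domains, which overlapped all 494. The q-value and equal-number filters take out the weakest peaks, so they had little room to change this count. The share of domains with a protein-coding gene end was 85.6% with a window of 1 kb, 77.2% at 3000 bp and 81.4 to 81.7% with 1 library left out. The share near another domain was 14.0% at 50 kb, 26.7% at 200 kb, 27.9% for domains of 3000 bp, 13.1% for those of 5000 bp and 18.97 to 20.6% with 1 library left out. The median pileup percentile, 83.8, was 80.6 among shared regions and 85.0 at 5000 bp. The limma count of domains wider for H3K9cr was 0, and 3 on length in bp, beside 35 of all 22972 shared regions. The single end call became 0 with the outermost edge, with the replicate block and without each library in turn. The median width difference of -0.08 log2 turned to 0.035 without centring, was -0.134 to -0.021 with 1 library left out and stayed -0.08 with the replicate block. Deviations of same-numbered libraries had a correlation of 0.14 over 22972 regions; with 2 pairs, they share a number only. With the block, the adjusted calls over all shared regions (35 starts lower and 2 higher, 44 ends higher and 4 lower for H3K9cr) also became 0, and the counts of domains with an adjusted call for width or start stayed 0. Apart from the shifts in construction (threshold, distance, samples), the cause of these changes was not tested. Depth is unknown, and sites too weak for the authors' caller are missing from the lists.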
